A study of Ovis aries with 26 samples.

Results

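The solute carrier (SLC) transporters of sheep oocytes and preimplantation embryos were followed through 8 stages. Members were the rows of the deposited gene table named SLC, a number, A and a number that reached an FPKM (fragments per kilobase of gene, scaled to the depth of the library) of at least 5 in at least 3 of 26 libraries. Of 30186 rows in the table, 325 have such a name, 121 passed this threshold and 117 were kept. SLC2A1, SLC2A3, SLC34A2 and SLC40A1 also passed and were set aside by name. The members were therefore chosen by their level in these libraries, so a high level somewhere is not a result. The third highest FPKM, on which the rule turns, was 5.09 for SLC52A3 and 5.17 for SLC26A5, just inside, and 4.97 for SLC6A15 and 4.90 for SLC36A1, just outside.

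Oocytes at the second meiotic metaphase (MII, 2 libraries) were compared with cleavage embryos of 2 (2C, 4 libraries), 4 (4C, 3), 8 (8C, 4) and 16 cells (16C, 3), with morulae (Morula, 3), early blastocysts (EarlyB, 3) and expanded blastocysts (ExpB, 4). Embryos came from fertilization in vitro and were grown in a commercial embryo culture medium, so all embryonic stages share culture, and none developed in an animal. Material was lysed directly and its poly(A) RNA was amplified by Smart-seq2, a full-length cDNA method for very small inputs. How many oocytes or embryos went into a library, their breed and the age of the animals are not in the labels, which also do not say whether replicates came from separate animals or cultures. The p-values therefore cover the variation among these libraries, and that may be technical. In whole embryos a change of a transcript in fewer cells and a smaller change in every cell cannot be told apart, nor can a change in poly(A) tail length and one in RNA amount.

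Solute carriers are membrane proteins that move ions, nutrients, vitamins, metals and metabolites across the plasma membrane, the membranes of organelles and the inner mitochondrial membrane. Some work alone and others in pairs, such as the amino acid exchangers of the SLC7 family that need the heavy chain encoded by SLC3A2. Before implantation an embryo starts from transcripts stored by the oocyte, switches on its own genome, and then forms the trophectoderm, the transporting outer layer that pumps ions and water into the blastocyst cavity. The zinc content of the oocyte is known to be tightly regulated around fertilization, by uptake through SLC39 proteins and by export. Many paralogues carry similar cargo, so a substrate can be served by different genes at different times.

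Assigned reads, recovered from the steps of the FPKM values, numbered 16.0 to 35.6 in units of 1e6 per library, with 16.0 to 19.9 in EarlyB. Across the members, 24 of the 26 libraries correlated best with their own stage. The exceptions were 4C replicate 2, whose mean correlation with 2C was 0.983 against 0.965 with its own stage, and 16C replicate 1, at 0.946 with 8C against 0.927. 16C replicate 3 had the lowest correlation with its own stage, 0.907. The labels of the stages were checked against marker genes. Oocyte transcripts (ZP2, GDF9, OOEP and 4 others) summed to an FPKM of 4103 to 4692 in MII and 11 to 22.2 in ExpB, and trophectoderm markers (KRT8, GATA3 and 4 others) to 5.51 to 6.09 and 3327 to 7508. Markers of sperm and of blood cells summed to at most 4.43 and 19.3 in any library.

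The 117 members covered 26 mitochondrial carriers, 20 transporters of metals, 19 of amino acids and peptides, 14 of inorganic ions, 13 of vitamins, nucleosides, choline or lipids, 11 of sugars or nucleotide sugars, 5 of carboxylates and 5 of organic ions or neurotransmitters. SLC66A2 and SLC66A3 had no assigned cargo. SLC9A3R1 encodes a scaffold protein and SLC7A6OS a gene named for its place opposite SLC7A6, so these 2 members carry the family name without being transporters. In number, members were highest most often late: 38 had their highest stage mean in ExpB, 24 in EarlyB and 13 in Morula, against 9 in MII, 8 in 2C, 4 in 4C, 12 in 8C and 9 in 16C. Only 17 members were at an FPKM of 5 or more in every library, 40 reached it solely in libraries of the Morula to ExpB stages, and 22 solely in libraries of the MII to 16C stages. The largest step between successive stage means, on the log2(FPKM + 1) scale, fell between 16C and Morula for 59 members, 35 upwards and 24 downwards, between Morula and EarlyB for 27 (19 upwards) and between EarlyB and ExpB for 15 (11 upwards). These counts of highest stages, of libraries and of steps were not made over all genes, so a late bias in them may be general. They also rest on FPKM without rescaling. Every library of Morula, EarlyB and ExpB had a larger FPKM sum than every library of the earlier stages. The part of this scale in the counts was not tested. The members took a similar part of the total at all stages, 0.213% to 0.363% of the FPKM sum of a library.

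**Figure D1:**
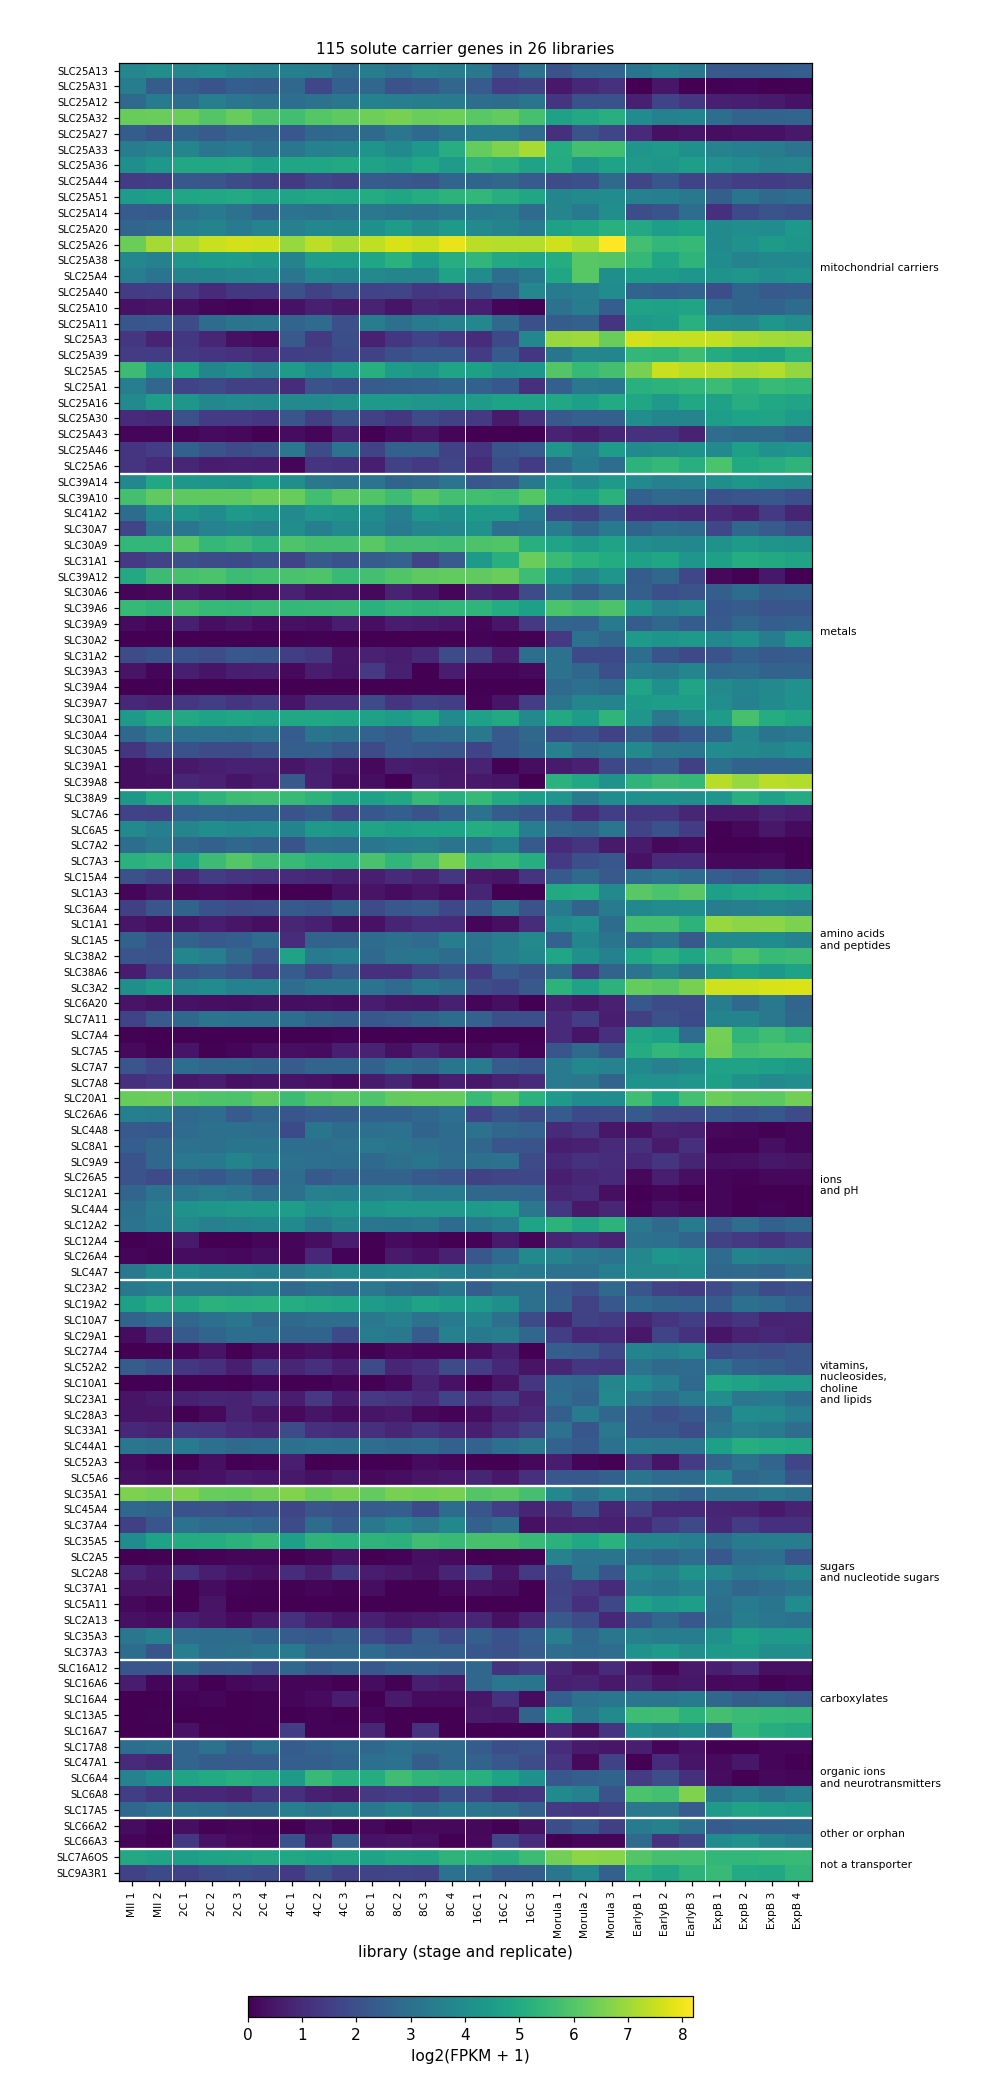
Heat map of log2(FPKM + 1) for 115 of the 117 members (rows, grouped by cargo and ordered by the stage of their highest mean) in the 26 libraries (columns). Of all 117 members, 59 have their largest step between successive stage means at the border between the 16C and Morula libraries. The same was not counted over all genes.

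Differences between stages were fitted with limma on log2(FPKM + 1), over 15766 genes and all 26 libraries, and a gene was called higher or lower when its adjusted p (Benjamini-Hochberg) was under 0.05 and its log2 difference at least 1 in size. The 8 comparisons were the 7 steps between successive stages and ExpB against 2C, which shares libraries with 3 of the steps. Since the rule used the level in these libraries, counts of members are descriptions and are set beside the percentage of all genes called in the same way. For each step the members that reach the threshold of FPKM 5 in 3 libraries outside both stages compared are also counted, because for these the rule did not use the step.

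Between MII and 2C, 7 members were higher and 2 lower in 2C, beside 4.44% and 2.01% of all genes and 6.88% and 2.8% of the 9399 genes that meet the same level threshold. Without MII replicate 1 these counts were 2 and 0, without MII replicate 2 they were 11 and 4, and without 2C replicate 3 they were 5 and 1. From 2C to 4C no member was called, beside 0.00634% of all genes called higher and 0.0% lower (0.0106% and 0.0% at the same level), and 11 members (1329 genes) had an unadjusted limma p under 0.05. From 4C to 8C no member was called either, beside 0.577% higher and 0.33% lower (0.83% and 0.383% at the same level), and 24 members (2460 genes) had an unadjusted p under 0.05. Leaving out 4C replicate 2, 8C replicate 2 or 16C replicate 3 gave 1 called member. At 16C, 6 members were higher and 2 lower than at 8C, beside 5.54% and 2.01% (8.42% and 2.88% at the same level), and the counts were 8 and 4 without 16C replicate 1 and 7 and 1 without 16C replicate 2. In percent of members these counts are 5.98 and 1.71 for 2C against MII and 5.13 and 1.71 for 16C against 8C. Each lies under the share of genes at the same level. For the 113 and 109 members that pass the threshold elsewhere, the counts were 7 and 2 at 2C and 5 and 2 at 16C. Up to 16C few members were thus called at any step. Over all genes 1017 were called for 2C against MII, 1 for 4C against 2C, 143 for 8C against 4C and 1191 for 16C against 8C.

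The step from 16C to Morula had 43 members higher and 32 lower, which is 36.8% and 27.4% of the members, beside 28.1% and 15.0% of all genes. Among the 9399 genes at the same level, 35.6% were higher and 22.0% lower, which is nearer to the members' shares than all genes are. Of the 110 members whose membership does not rest on these 2 stages, 41 were higher and 30 lower. EarlyB had 34 members higher and 14 lower than Morula, beside 14.7% and 12.4% of all genes, and ExpB had 18 higher and 14 lower than EarlyB, beside 4.65% and 13.1%. In percent of members these are 29.1 and 12.0 for EarlyB and 15.4 and 12.0 for ExpB, against 16.6% and 17.3%, and 6.32% and 16.4%, of genes at the same level. For the 106 and 87 members that pass the threshold elsewhere, the counts were 30 and 13 at EarlyB and 10 and 9 at ExpB. The balance at ExpB turned to 13 higher and 16 lower without EarlyB replicate 3 and to 16 and 23 with a pseudocount of 0.1. Over the whole span, ExpB had 60 members higher and 37 lower than 2C, beside 30.7% and 23.6% (38.7% and 32.4% at the same level). Of the 106 members that pass the threshold outside 2C and ExpB, 51 were higher and 35 lower.

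The median log2 difference of the members was 0.50 at Morula, where the median of all genes was 0.32, and 1.06 for ExpB against 2C, where it was 0.23, or 0.61 over the 106 members that pass the threshold outside these stages. These medians depended on the scale of the libraries. With each library rescaled to a common sum (TPM) the median of all genes became 0.13 at Morula, 0 for ExpB against 2C and 0.17 in place of 0.07 for 2C against MII, and with median-ratio scaling it was 0.18 at Morula and moved from -0.30 to -0.08 for ExpB against EarlyB. The median of the members became 0.28 at Morula and 0.73 for ExpB against 2C on the TPM scale, and with median-ratio scaling it was 0.33 at Morula and moved from -0.24 to 0.01 for ExpB against EarlyB. The split of calls also moved with the scale. At Morula it was 40 higher and 38 lower on the TPM scale and 39 and 35 with median-ratio scaling. For EarlyB against Morula it was 33 and 18 on the TPM scale and 31 and 13 with median-ratio scaling. For ExpB against 2C it was 54 and 43 on the TPM scale and 60 and 38 with median-ratio scaling. For 2C against MII it was 14 higher and 2 lower on the TPM scale and 2 and 4 with median-ratio scaling, for 16C against 8C it was 7 and 5 on the TPM scale, and for ExpB against EarlyB it was 28 and 9 with median-ratio scaling. As a description, the correlation across the 117 members between a 2C and an ExpB library lay between -0.178 and -0.0790, and across all genes at the same level between 0.265 and 0.385. The points share the length of each gene, and members are not independent replicates.

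**Figure D2:**
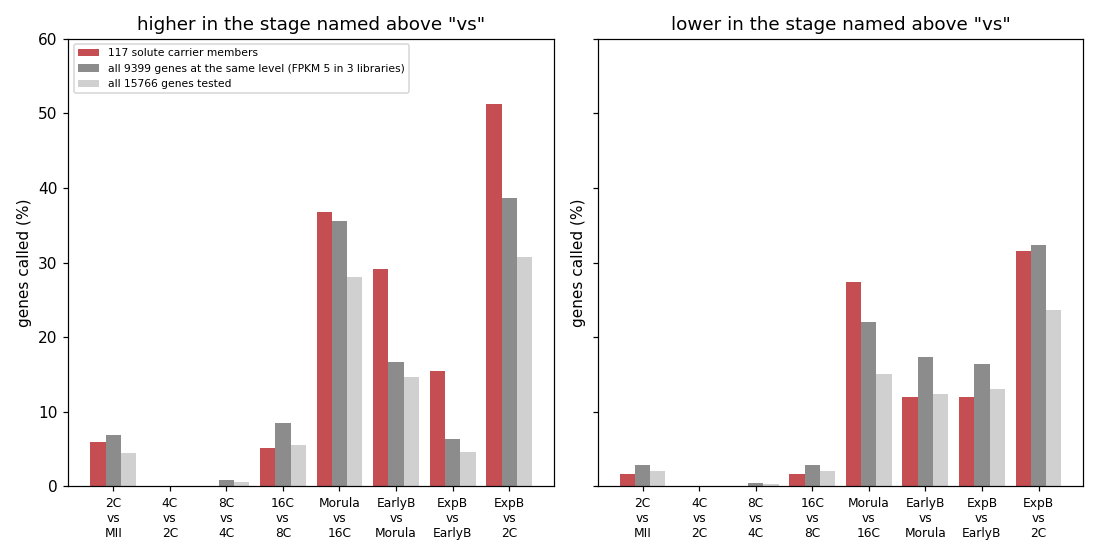
Percentage of genes called higher (left) and lower (right) in each comparison, for the 117 members, for all 9399 genes at the same level and for all 15766 genes tested. At Morula the bars of the members are closer to those of genes at the same level than to those of all genes, and they stand above both among genes higher in EarlyB and ExpB, where part of the members passed the threshold through the stages compared.

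Amino acid and peptide transporters, 19 members, grew in summed level after Morula. Their FPKM summed to 120.2 to 171 in the 16C libraries, 147 to 189 in Morula, 357 to 380.3 in EarlyB and 621 to 691 in ExpB. At Morula 6 of the 19 were called higher and 6 lower than at 16C, beside 28.1% and 15.0% of all genes and 35.6% and 22.0% of genes at the same level. Their highest mean was in ExpB for 11 of the 19. A few members carried the sum in ExpB, with means of 202.5 for SLC3A2, 108.6 for SLC1A1, 64.05 for SLC7A5 and 54.11 for SLC7A4. Others were near 0 there, such as SLC7A3 (0.106) and SLC7A2 (0.0193). Members of the class moved in opposite directions, as the plot of paralogues by stage shows.

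Uptake of cationic amino acids (arginine, lysine, ornithine) was represented early by SLC7A3 and SLC7A2, the members grouped under this cargo. The related exchangers SLC7A6 and SLC7A7 are given further below. SLC7A3 stood at 56.1, 41.5, 53.4 and 92 FPKM in the 8C libraries and 40.0, 44.2 and 33.4 in 16C, then at 1.63, 3.0 and 3.68 in Morula and 0.137, 0.122, 0.163 and 0 in ExpB. The groups do not overlap, and the fall at Morula (limma, log2 difference -3.45, SE 0.29, adjusted p = 1.7e-09) was the largest of any member at that step. A further fall to EarlyB of 1.08 on the log2 scale was not called without Morula replicate 3 or without EarlyB replicate 1. SLC7A2 went from 7.5, 10.5 and 4.01 in 16C to 1.02, 1.36 and 0.522 in Morula (log2 difference -2.03, SE 0.25, adjusted p = 3.0e-07), with all Morula libraries below all 16C libraries. SLC7A1, the ubiquitous member of this group, did not pass the level rule and reached at most 1.40 FPKM, in an ExpB library. SLC6A5, a glycine transporter chosen after its values were seen, ranged from 10.3 to 32.9 in 16C and from 5.29 to 8.29 in Morula (log2 difference -1.66, SE 0.29, adjusted p = 4.0e-05).

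SLC3A2, the heavy chain that brings SLC7 light chains to the cell surface, had its lowest level at 16C. It read 7.77, 6.22, 9.01 and 7.11 in 8C and 2.89, 2.4 and 3.89 in 16C, a fall of 1.08 on the log2 scale (adjusted p = 0.00018) that dropped below 1 in size without 8C replicate 3 or 16C replicate 2. It then read 38.6, 25.4 and 38 in Morula (log2 difference 3.1, SE 0.19, adjusted p = 1.8e-11), 76, 68.8 and 90.3 in EarlyB (log2 difference 1.2, SE 0.19, adjusted p = 2.4e-05) and 192, 192, 209 and 218 in ExpB (log2 difference 1.37, SE 0.18, adjusted p = 4.0e-06). Each of these 3 stages lay wholly above the one before it. Its light chain for large neutral amino acids, SLC7A5, was at 0.0227 to 0.77 FPKM in all libraries up to 16C. SLC7A5 rose to 3.6, 6.1 and 3.34 in Morula (log2 difference 2.16, SE 0.21, adjusted p = 1.4e-08) and 32, 41.6 and 37 in EarlyB (log2 difference 2.85, SE 0.21, adjusted p = 7.5e-10), and stood at 84.4, 54.2, 57.8 and 59.9 in ExpB. A second light chain, SLC7A8, rose from 0.712 ± 0.271 (SD, n = 3) to 7.78 ± 2.4 (n = 3) at Morula (log2 difference 2.33, SE 0.21, adjusted p = 4.3e-09) and was 17.7 ± 4.74 (n = 4) in ExpB. SLC7A6, which exchanges cationic for neutral amino acids, fell at Morula by 1.09 on the log2 scale, from 7.34, 4.37 and 3.41 to 2.41, 1.07 and 1.88, a call lost without 16C replicate 1 or Morula replicate 2. Another SLC7 member, SLC7A7, chosen after its values were seen, had higher means late, at 5.71 in 16C, 11.3 in Morula, 12.7 in EarlyB and 24.0 in ExpB. SLC7A6 overlaps SLC7A6OS in the RefSeq gene table of assembly ARS-UI_Ramb_v3.0, so reads of these 2 members may be shared.

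The cystine and glutamate exchanger SLC7A11, whose cargo feeds glutathione synthesis, went down and came back. Its libraries read 5.78, 7.99, 7.23 and 7.58 in 2C, 0.961, 1.79 and 0.624 in Morula and 12, 12, 8.81 and 5.84 in ExpB. It rose from EarlyB to ExpB (log2 difference 1.56, SE 0.25, adjusted p = 4.6e-05), and its fall at Morula (log2 difference -1.15, SE 0.27, adjusted p = 0.0008) was lost without 16C replicate 1 or Morula replicate 3. The sodium-coupled glutamate and aspartate transporters SLC1A1 and SLC1A3 were both near 0 until 16C, at no more than 1.07 FPKM in any library. SLC1A1 rose at each later step, to 13.8, 16.6 and 6.39 (log2 difference 3.13, SE 0.27, adjusted p = 2.5e-09), 53.8, 54.2 and 38.1 (log2 difference 1.98, SE 0.27, adjusted p = 3.5e-06) and 121, 109, 109 and 95.6 (log2 difference 1.15, SE 0.25, adjusted p = 0.00098), the last of which lay just under a difference of 1 without EarlyB replicate 3 and had an adjusted p of 0.055 with a pseudocount of 0.1. SLC1A3 turned back after EarlyB. It read 30.4, 32.1 and 13.4 in Morula, 68.2, 57.8 and 67.9 in EarlyB and 23.7, 27.6, 30.5 and 27.7 in ExpB, a rise of 4.33 and then 1.41 and a fall of 1.21 on the log2 scale (adjusted p = 6.3e-12, 7.8e-05 and 0.00029). The fall was not called with median-ratio scaling, and with a pseudocount of 0.1 neither the rise at EarlyB (adjusted p = 0.068) nor the fall (adjusted p = 0.11) was called.

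Neutral amino acids are also taken up with sodium by SLC38A2, whose transcript is known to rise under amino acid shortage, and by the glutamine transporter SLC1A5. SLC38A2 had means of 8.14 ± 4.08 in 2C (SD, n = 4), 18.1 ± 8.17 in Morula (n = 3) and 49.3 ± 5.83 in ExpB (n = 4), was called between 2C and ExpB (log2 difference 2.58, SE 0.31, adjusted p = 7.3e-08) and at no single step. SLC1A5 was at 4.92 ± 1.02 in 2C and 13.4 ± 1.25 in ExpB (log2 difference 1.3, SE 0.30, adjusted p = 0.00044). Its rises from EarlyB to ExpB and from 2C to ExpB were lost without EarlyB replicate 3 and on the TPM scale, respectively. SLC7A4, an SLC7 protein whose cargo is not settled, was at no more than 0.0473 FPKM up to 16C and read 0.99, 0.37 and 1.15 in Morula, 28, 23.7 and 6.66 in EarlyB (log2 difference 3.29, SE 0.33, adjusted p = 6.8e-08) and 88.7, 40.0, 48.8 and 39 in ExpB, all ExpB libraries above all EarlyB ones. It passed the level rule through these blastocyst libraries, so its last step is given without a test. The glycine transporter SLC6A9 and the taurine transporter SLC6A6 did not pass the rule, with at most 1.33 and 0.159 FPKM.

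**Figure D3:**
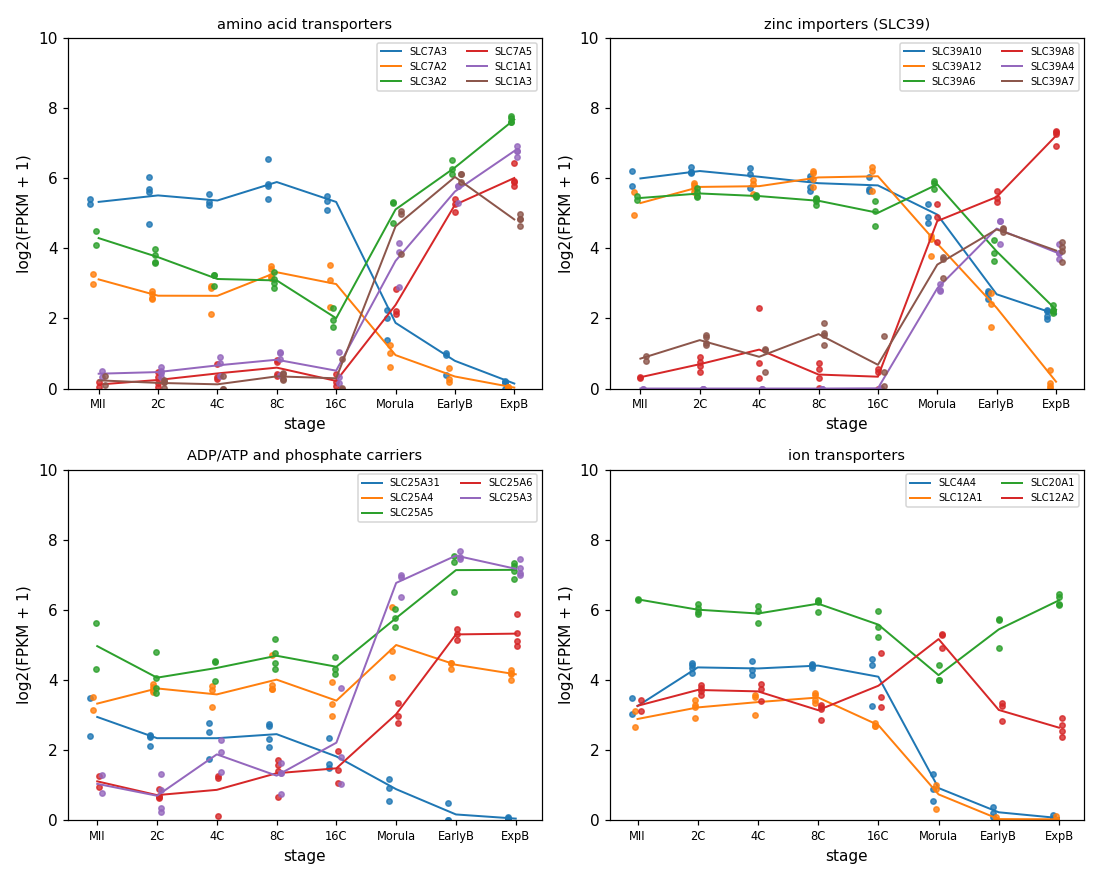
log2(FPKM + 1) of members that share a kind of cargo, by stage. Points are libraries and lines join stage means. In the amino acid and zinc panels the lines of early and late members cross between 16C and EarlyB, and SLC20A1 dips at Morula and returns by ExpB. The panels show chosen members, and SLC39A14 is not among them.

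Of the 20 metal transporters, 9 were higher and 3 lower at Morula than at 16C, beside 28.1% and 15.0% of all genes and 35.6% and 22.0% of genes at the same level. In ExpB 10 were higher and 6 lower than in 2C, beside 30.7% and 23.6% of all genes and 38.7% and 32.4% at the same level. Of the 20, 17 pass the threshold outside 16C and Morula, and 18 outside 2C and ExpB. Zinc importers of the SLC39 family split into an early and a late set, apart from SLC39A14. Its means were 19.4 in 2C, 5.58 in 16C and 16.8 in ExpB. SLC39A10 was at 48.9 to 78.8 FPKM in all libraries up to 16C, 28.5, 25.5 and 37.6 in Morula and 4.83, 5.91 and 5.64 in EarlyB (log2 difference -2.27, SE 0.18, adjusted p = 2.7e-09). SLC39A6, which forms a complex with SLC39A10, was still high in Morula. It stood at 57.2, 50.5 and 59.2 in Morula, 17.8, 11.4 and 13.6 in EarlyB (log2 difference -1.91, SE 0.17, adjusted p = 1.2e-08) and 3.75, 4.2, 3.44 and 3.62 in ExpB (log2 difference -1.66, SE 0.16, adjusted p = 7.4e-08). SLC39A12 fell at 3 successive steps, reading 72.7, 78.8 and 48.7 in 16C, 19.3, 12.8 and 18.2 in Morula, 4.33, 5.66 and 2.37 in EarlyB and 0.118, 0.0448, 0.451 and 0.0149 in ExpB. The falls were 1.92, 1.83 and 2.11 on the log2 scale (adjusted p = 5.6e-07, 2.4e-06 and 3.4e-07). No library of a later stage reached the lowest of the stage before.

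SLC39A8, which imports manganese as well as zinc, had the widest range of stage means of all members, 6.88 on the log2 scale. It was at 0 to 0.46 FPKM in 16C, 37, 28.9 and 17.1 in Morula (log2 difference 4.44, SE 0.34, adjusted p = 4.4e-10), 38.8, 48.3 and 42.5 in EarlyB and 158, 120.3, 162 and 151 in ExpB (log2 difference 1.75, SE 0.32, adjusted p = 0.00017). SLC39A4, the importer of the intestinal epithelium, was listed at 0 in 15 of the 16 libraries up to 16C and read 5.99, 6.88 and 5.9 in Morula, 26.4, 16.5 and 26.5 in EarlyB and 13.5, 11.9, 13.6 and 16.6 in ExpB, with rises of 2.85 and 1.7 (adjusted p = 3.6e-12 and 1.9e-08) on the log2 scale. SLC39A7, which releases zinc from the endoplasmic reticulum, rose from 0.0543, 0.384 and 1.8 in 16C to 7.88, 12.6 and 11.9 in Morula (log2 difference 2.86, SE 0.27, adjusted p = 9.1e-09). SLC39A3 went from 0.122 ± 0.031 to 5.38 ± 2.25 at the same step (n = 3 each, log2 difference 2.44, SE 0.26, adjusted p = 4.1e-08). SLC39A14, which also carries iron, had its lowest mean in 16C, at 13.2 and 29 in MII, 3.63, 4.15 and 8.95 in 16C and 20.1, 14.4 and 20.6 in Morula (log2 difference 1.63, SE 0.29, adjusted p = 3.9e-05).

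Zinc transporters of the SLC30 family, most of which move zinc out of the cytosol, differed between stages in both directions. SLC30A1, the exporter of the plasma membrane, read 30.4, 21.6 and 39.7 in Morula, 18.1, 8.59 and 13.6 in EarlyB and 21.5, 55.1, 32.7 and 27.9 in ExpB. Its fall of 1.15 and rise of 1.26 (log2, adjusted p = 0.0057 and 0.0021) were both lost without EarlyB replicate 2, and the fall also without Morula replicate 3. SLC30A9 was at 51.6 ± 15.4 in 16C and 24.3 ± 3.13 in Morula, a fall of 1.02 (adjusted p = 0.00018) that was lost without any of 3 single libraries (16C replicates 1 and 2 and Morula replicate 2). SLC30A5 and SLC30A6, which work on the secretory pathway, both had higher means in ExpB (13.9 ± 0.982 and 5.09 ± 0.911) than in 2C (2.97 ± 0.305 and 0.243 ± 0.118, n = 4 each). The log2 difference was 1.91 for SLC30A5 (adjusted p = 1.2e-08), and SLC30A6 owes its membership to the late libraries. SLC30A2, chosen after its values were seen, was at no more than 0.0468 up to 16C and rose to 1.58, 7.45 and 5.51 in Morula and 20.8, 18.1 and 20.2 in EarlyB (log2 difference 1.99, SE 0.27, adjusted p = 3.0e-06). The magnesium transporter SLC41A2, chosen in the same way, ranged from 10.5 to 21.1 in 16C and from 2.02 to 3.63 in Morula (log2 difference -2.29, SE 0.27, adjusted p = 2.6e-07).

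Mitochondrial carriers were the largest class, and at Morula 10 of the 26 were higher and 5 lower than at 16C, near the 35.6% and 22.0% of genes at the same level (28.1% and 15.0% of all genes). Of the 26, 24 pass the threshold outside 16C and Morula. SLC25A26, which brings S-adenosylmethionine into mitochondria, had the highest mean over the stages of all members. It was at 121 to 292 FPKM from 2C to Morula, then at 52.4, 42.2 and 43.8 in EarlyB (log2 difference -2.14, SE 0.23, adjusted p = 1.2e-07) and 13.7, 16.8, 21.1 and 19.4 in ExpB (log2 difference -1.34, SE 0.21, adjusted p = 3.6e-05). The second of these falls was not called with median-ratio scaling. SLC25A32, a carrier of folate and flavin adenine dinucleotide, fell at 3 successive steps, with means of 65.8 ± 9.38, 29.6 ± 4.83, 12.5 ± 1.65 and 5.61 ± 0.831 from 16C on. Its log2 differences were -1.13, -1.17 and -1.04 (adjusted p = 6.8e-06, 9.0e-06 and 3.1e-05), the last lost with median-ratio scaling and without EarlyB replicate 1 or ExpB replicate 2.

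Several carriers that serve oxidative phosphorylation rose at Morula. SLC25A3, which imports the phosphate for ATP synthesis, was at 0.181 to 3.91 FPKM up to 8C, 1.06, 2.5 and 12.8 in 16C and 122, 126 and 81.6 in Morula (log2 difference 4.55, SE 0.44, adjusted p = 1.2e-08). The highest of the 16C values belongs to replicate 3, and all Morula libraries lay above it. SLC25A3 stayed at 126 to 204 in the blastocysts. ATP leaves mitochondria in exchange for ADP through 4 related carriers, SLC25A4, SLC25A5, SLC25A6 and SLC25A31, the last of which is known from germ cells. These genes are alike in sequence, and how reads common to several were counted is not given in the sources used here, so the division among them is uncertain.

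SLC25A5 was the most abundant of the 4 at every stage on the per-length FPKM scale. It read 24.4, 16.9 and 18.7 in 16C, 63.8, 44.4 and 54 in Morula (log2 difference 1.39, SE 0.33, adjusted p = 0.00092), 89.7, 185 and 162 in EarlyB (log2 difference 1.37, SE 0.33, adjusted p = 0.0017) and 159, 137, 151 and 116 in ExpB. SLC25A6 rose with it, at 1.07, 2.9 and 1.7 in 16C, 5.84, 9.05 and 6.85 in Morula and 38.5, 42.5 and 34.5 in EarlyB (log2 differences 1.54 and 2.27, adjusted p = 0.00013 and 2.5e-06). SLC25A4 was highest in Morula, though its 3 libraries there spread widely, at 27.4, 66 and 16.1, against 14.4, 6.79 and 9.01 in 16C (log2 difference 1.59, SE 0.34, adjusted p = 0.00034). SLC25A31 declined from 10.2 and 4.3 in MII and 4.09 ± 0.49 in 2C (SD, n = 4) to 0.0343 ± 0.0274 in ExpB (n = 4, log2 difference -2.29, SE 0.25, adjusted p = 1.5e-08), with no single step called.

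Carriers of carboxylates and of the malate and aspartate shuttle differed among themselves. The citrate carrier SLC25A1, whose export supplies cytosolic acetyl-CoA, was at 4.69, 8.61 and 8.16 in Morula and 35.4, 38 and 40.7 in EarlyB (log2 difference 2.3, SE 0.30, adjusted p = 1.7e-06). The dicarboxylate carrier SLC25A10 read 0.613, 0.0885 and 0.0279 in 16C, 7.35, 10.03 and 4.45 in Morula (log2 difference 2.71, SE 0.21, adjusted p = 4.5e-10), 25.6, 24.5 and 26.3 in EarlyB and 6.33, 5.2, 5.12 and 6.5 in ExpB. All EarlyB libraries lay above those of every other stage, and as the membership of SLC25A10 rests on the blastocyst libraries its last step is given without a test. Of the aspartate and glutamate exchangers, SLC25A12 fell between 2C and ExpB from 8.25 ± 1.58 to 0.522 ± 0.146 (n = 4 each, log2 difference -2.59, SE 0.20, adjusted p = 5.8e-11). SLC25A13 went from 12.5 ± 1.56 to 4.14 ± 0.294 (log2 difference -1.39, SE 0.20, adjusted p = 1.2e-06). SLC25A11, the malate carrier of this shuttle, went the other way, with means of 6.31 in 2C, 3.48 in Morula, 26.1 in EarlyB and 15.3 in ExpB. It was called higher in ExpB than in 2C, a call lost on the TPM scale and without 2C replicate 1 (log2 differences 0.73 and 0.93). The acylcarnitine carrier SLC25A20, needed to burn fatty acids, rose at Morula from 13.7, 11.7 and 9.65 to 24.9, 28 and 35.5 (log2 difference 1.26, SE 0.18, adjusted p = 3.4e-06), a call lost on the TPM scale. SLC25A39, linked to mitochondrial glutathione and chosen after its values were seen, ranged from 1.45 to 4.05 in 16C and from 40.0 to 49.4 in EarlyB, with log2 differences of 1.9 at Morula and 1.89 at EarlyB (adjusted p = 5.6e-07 and 1.4e-06). At the other extreme SLC25A16 had the narrowest range of stage means of all members, 0.91 on the log2 scale, and was not called in any of the 8 comparisons.

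Among the 14 ion transporters 2 were higher and 7 lower at Morula, beside 28.1% and 15.0% of all genes and 35.6% and 22.0% of genes at the same level, and their median log2 difference was -0.93, beside 0.32 over all genes. The sodium bicarbonate cotransporter SLC4A4 was at 20.6, 23.1 and 8.55 FPKM in 16C, 1.49, 0.463 and 0.857 in Morula (log2 difference -3.17, SE 0.25, adjusted p = 5.6e-10) and 0 to 0.108 in ExpB. SLC12A1, a sodium, potassium and chloride cotransporter best known from the kidney and chosen after its values were seen, fell with it, at 5.78, 5.49 and 5.42 in 16C and 0.846, 1.01 and 0.251 in Morula (log2 difference -1.98, SE 0.19, adjusted p = 1.2e-08). Its relative SLC12A2 was highest in Morula alone. SLC12A2 read 8.36, 10.5 and 26.1 in 16C, 38, 29 and 38.5 in Morula and 8.53, 6.14 and 9.19 in EarlyB, with a rise (log2 difference 1.33, SE 0.27, adjusted p = 0.0002) that was lost on the TPM scale and a fall from Morula to EarlyB (log2 difference -2.02, SE 0.27, adjusted p = 2.8e-06). The potassium and chloride exporter SLC12A4 was highest in EarlyB, at 7.31, 6.93 and 5.34, and reached the level rule through that stage.

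SLC20A1, a sodium phosphate cotransporter and the most abundant ion transporter, dipped for a single stage. Its FPKM was 48 to 78.9 up to 8C, 45, 62 and 36.6 in 16C, 20.5, 15 and 14.9 in Morula (log2 difference -1.44, SE 0.22, adjusted p = 5.2e-06), 50.9, 28.8 and 52.1 in EarlyB (log2 difference 1.3, SE 0.22, adjusted p = 3.6e-05) and 80.8, 70.5, 68.8 and 86.1 in ExpB. No Morula library reached the lowest of any other stage. SLC4A7, another bicarbonate transporter, ranged from 5.41 to 15.1 FPKM over all libraries and fell between EarlyB and ExpB (log2 difference -1.08, SE 0.18, adjusted p = 5.6e-05), a call lost with median-ratio scaling. The housekeeping anion exchanger SLC4A2 did not pass the level rule, at no more than 3.04 FPKM.

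Sugar and nucleotide sugar transporters counted 11 members, 5 of them higher and 2 lower at Morula, beside 28.1% and 15.0% of all genes and 35.6% and 22.0% of genes at the same level. SLC35A1, which loads the Golgi with the activated sialic acid used to decorate glycoproteins, was the most abundant. It read 74.6 to 99.2 up to 8C, 62.9, 66.9 and 53.9 in 16C, 13.2, 7.85 and 11.5 in Morula (log2 difference -2.42, SE 0.18, adjusted p = 2.0e-10) and 5.06 to 8.69 in the blastocysts. The fructose transporter SLC2A5 appeared at Morula, at 11.5, 7.78 and 7.83 against 0, 0.0266 and 0.0629 in 16C (log2 difference 3.26, SE 0.20, adjusted p = 1.7e-11). SLC2A8, a glucose transporter of internal membranes, had means of 1.23 ± 0.701 in 16C, 4.46 ± 2.59 in Morula and 14.2 ± 2.72 in EarlyB (n = 3 each), with a rise at the second of these steps (log2 difference 1.56, SE 0.29, adjusted p = 0.00013). The sodium-coupled inositol transporter SLC5A11 was at most 0.346 up to 16C, 2.27, 1.22 and 2.46 in Morula and 24.8, 19.6 and 23.1 in EarlyB (log2 difference 3.0, SE 0.20, adjusted p = 2.1e-10), and 7.09, 9.48, 8.1 and 14.7 in ExpB. Its last step is likewise given without a test. SLC37A4, the glucose 6-phosphate carrier of the endoplasmic reticulum, fell between 8C, at 8.73, 11.7, 8.55 and 13.1, and 16C, at 4.88, 6.4 and 0.296 (log2 difference -1.57, SE 0.38, adjusted p = 0.0069). Without 16C replicate 3, its lowest library there, the difference was -0.78 and the adjusted p 0.057, and in the fit on 8C and 16C alone the adjusted p was 0.11.

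Of the 5 carboxylate transporters 2 were higher and 2 lower at Morula, beside 28.1% and 15.0% of all genes. The lower ones, SLC16A6 and SLC16A12, met the level rule wholly or in part through 16C libraries, so no test is given. The citrate importer SLC13A5 read 0.504, 0.454 and 5.09 in 16C, 23.2, 9.05 and 13.8 in Morula (log2 difference 2.69, SE 0.35, adjusted p = 8.6e-07), 49.6, 50.5 and 38 in EarlyB (log2 difference 1.61, SE 0.35, adjusted p = 0.00071) and 53.8, 46.8, 44.1 and 43.3 in ExpB, and was at no more than 0.0702 before 16C. Its rise from 8C to 16C (log2 difference 1.21, SE 0.33, adjusted p = 0.014) was not called without 16C replicate 3 (adjusted p = 0.13). SLC16A7, which carries pyruvate and lactate, came one stage later, at 0.823, 0.24 and 1.41 in Morula and 15.2, 12.3 and 15.6 in EarlyB (log2 difference 3.12, SE 0.45, adjusted p = 6.1e-06). SLC16A3, of the same family, reached at most 0.0697 FPKM, and SLC16A1 was not analysed here.

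Vitamin, nucleoside, choline and lipid transporters counted 13 members, 6 higher and 3 lower at Morula, beside 28.1% and 15.0% of all genes and 35.6% and 22.0% of genes at the same level. In ExpB 9 were higher and 4 lower than in 2C, beside 30.7% and 23.6% of all genes and 38.7% and 32.4% at the same level. Of the 13, 10 pass the threshold outside 2C and ExpB. The thiamine transporter SLC19A2 was the main early member, at 30.6, 37.1, 34.3 and 36.2 in 2C, 20.7, 16 and 7.1 in 16C and 4.6, 2.01 and 3.66 in Morula (log2 difference -1.75, SE 0.27, adjusted p = 6.7e-06). The choline transporter SLC44A1 ranged from 4.01 to 9.08 FPKM through all stages up to EarlyB and then rose to 24.2, 33.5, 31 and 29.3 in ExpB (log2 difference 1.65, SE 0.19, adjusted p = 5.7e-07). Of the nucleoside transporters, the equilibrative SLC29A1 fell, at 8.17 ± 2.35 in 16C and 1.25 ± 0.56 in Morula (n = 3 each, log2 difference -2.02, SE 0.32, adjusted p = 1.1e-05), and the sodium-coupled SLC28A3 rose, at 0.609 ± 0.341 and 6.48 ± 2.51 (log2 difference 2.19, SE 0.26, adjusted p = 2.7e-07). SLC10A1, a bile acid transporter of the liver, was at 0 to 0.753 up to 8C, 6.27, 5.89 and 12.2 in Morula (log2 difference 2.55, SE 0.30, adjusted p = 1.8e-07) and 28.8, 25.6, 22.2 and 21.9 in ExpB, its rise from EarlyB lost without EarlyB replicate 3 and with a pseudocount of 0.1 (adjusted p = 0.14). Riboflavin transporter SLC52A3, nearest the threshold, had a mean of 5.04 ± 2.15 in ExpB (n = 4) and at most 1.16 in the other stages.

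Transporters of organic ions and neurotransmitters numbered 5, of which 1 rose and 4 fell at Morula, beside 28.1% and 15.0% of all genes. The serotonin transporter SLC6A4 was the most abundant, at 32.5, 50.3, 40.0 and 37.2 in 8C, 35.8, 26.3 and 16.3 in 16C, 3.65, 4.45 and 5.21 in Morula (log2 difference -2.26, SE 0.27, adjusted p = 2.5e-07) and 0 to 0.195 in ExpB. The creatine transporter SLC6A8 moved the other way and peaked in a single stage. It was at 0.50 to 2.92 FPKM up to 16C, 14, 10.8 and 3.28 in Morula (log2 difference 1.8, SE 0.33, adjusted p = 5.4e-05), 57.3, 52.2 and 97 in EarlyB (log2 difference 2.88, SE 0.33, adjusted p = 2.9e-07) and 8.05, 10.4, 7.8 and 10.3 in ExpB. Its last step is likewise given without a test. SLC17A5, the lysosomal sialic acid exporter, chosen after its values were seen, dipped to 1.61, 1.43 and 1.96 in Morula and rose to 8.58, 8.44 and 4.13 in EarlyB and 20.0, 25.6, 22.9 and 20.2 in ExpB (log2 difference 1.57, SE 0.21, adjusted p = 4.0e-06).

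**Figure D4:**
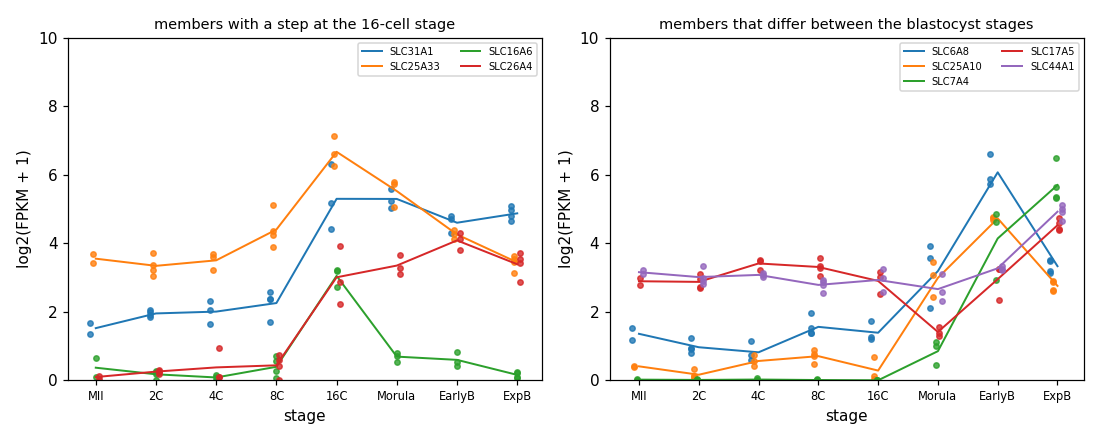
log2(FPKM + 1) by stage of members with a step at 16C (left) and of members that differ between EarlyB and ExpB (right). Points are libraries and lines join stage means. SLC16A6 is high in 16C alone, SLC6A8 and SLC25A10 peak in EarlyB, and SLC7A4, SLC17A5 and SLC44A1 are highest in ExpB.

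At 16C the 6 higher members were SLC31A1, SLC16A6, SLC26A4, SLC25A33, SLC25A40 and SLC13A5. The copper importer SLC31A1 went from 4.22, 5.0, 2.23 and 4.13 in 8C to 20.2, 35.1 and 78.6 in 16C (log2 difference 3.04, SE 0.30, adjusted p = 1.3e-07) and stayed at 18.6 to 47.4 afterwards. The pyrimidine nucleotide carrier SLC25A33 read 18, 13.8, 19.5 and 33.5 in 8C and 76.1, 97 and 139 in 16C (log2 difference 2.27, SE 0.26, adjusted p = 8.9e-07), then 18.2, 20.1 and 16.3 in EarlyB and 11.5, 10.7, 9.998 and 7.73 in ExpB. The anion exchanger SLC26A4 read 0, 0.518, 0.325 and 0.67 in 8C and 3.67, 6.33 and 14.2 in 16C (log2 difference 2.57, SE 0.30, adjusted p = 1.2e-06), and 6.34 to 18.8 in the later libraries. SLC16A6, a transporter of ketone bodies, read 5.56, 8.4 and 8.19 in 16C and 0 to 0.774 in every other library. It met the level rule through 16C alone, so no test is given. 16C replicate 3 was the highest of its stage for SLC31A1, SLC25A33, SLC26A4 and SLC13A5, and the calls of SLC13A5, SLC25A40 and SLC37A4 were lost without it.

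Between MII and 2C the higher members were SLC29A1, SLC47A1, SLC6A4, SLC30A7, SLC4A4, SLC9A9 and SLC7A11, and the lower ones SLC25A1 and SLC52A2. SLC29A1, the equilibrative nucleoside transporter, read 0.204 and 0.84 in MII and 3.97, 5.4, 6.83 and 6.71 in 2C (log2 difference 2.15, SE 0.34, adjusted p = 0.00027). SLC47A1, which exports organic cations, read 0.964 and 0.796 in MII and 5.34, 4.36, 4.06 and 4.2 in 2C (log2 difference 1.54, SE 0.30, adjusted p = 0.0016). SLC6A4 read 11.5 and 16.5 in MII and 26.9, 31.5, 34.9 and 32.1 in 2C, and SLC4A4 read 7.17 and 10.2 in MII and 17.3, 19.1, 20.6 and 21.2 in 2C, in each case with the first MII replicate the lower. Without MII replicate 1 the calls of SLC29A1 and SLC47A1 were kept and the other 7 were lost. With a pseudocount of 0.1 the calls of SLC47A1, SLC4A4 and SLC6A4 were lost (adjusted p = 0.057, 0.067 and 0.057). With median-ratio scaling those of SLC30A7, SLC9A9, SLC4A4, SLC6A4 and SLC7A11 were lost. SLC30A7 was also lost with no filter on low values (adjusted p = 0.081) and in the fit on MII and 2C alone (adjusted p = 0.062). Leaving out a library of another stage could end its call too, such as 8C replicate 1 or ExpB replicate 3 (adjusted p = 0.051 and 0.054). Cumulus and granulosa markers, of which 9 of 11 listed are in the table, were higher in sum in 2C than in MII. They summed to 13.7 to 19.3 FPKM in MII, 43.5 to 235 in 2C and 137 to 542 in 4C, mostly from LUM and TNFAIP6. Later sums were 9.54 to 125 in 8C, 15.6 to 102 in 16C, 11.9 to 43.0 in Morula, 1.85 to 10.6 in EarlyB and 0.683 to 4.19 in ExpB. INHBA alone had a lower mean in 2C than in MII, 0.558 against 1.21. FSHR had a mean of 0.0374 in MII and 0.961 in 2C, and AMH of 0 and 0.0130. Their part in the differences between MII and 2C was not tested.

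The blastocyst steps came with a large change in trophectoderm markers, all 6 of which are in the table. They summed to 17.3 to 23.3 FPKM in 16C, 96.4 to 145 in Morula, 1982 to 2598 in EarlyB and 3327 to 7508 in ExpB, chiefly KRT8. Inner cell mass markers (POU5F1, NANOG and SOX2) summed to 44 to 54.3 in EarlyB and 42.9 to 65.8 in ExpB, but moved in opposite directions. From EarlyB to ExpB the mean of NANOG went from 1.37 to 19.6, that of POU5F1 from 48.0 to 35.3 and that of SOX2 from 1.36 to 0.0599. The part of the cells that carry these markers in the rises of SLC39A8, SLC3A2, SLC1A1, SLC44A1 and SLC7A11 was not tested. Oocyte markers, all 7 in the table, were lower in sum over the same steps, though NLRP5 had a mean of 0.463 in 16C and 0.675 in Morula. They summed to 1715 to 2855 in 16C, 314 to 482 in Morula and 89.8 to 134 in EarlyB. The falls of SLC7A3, SLC39A12, SLC4A4, SLC35A1 and SLC6A4 took place alongside, and the part of the oocyte's transcript store in them was not tested.

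Genes that work with solute carriers or belong to carrier families outside the naming pattern were listed, 51 in all, of which 49 are in the table and 38 were tested. At Morula 14 of the 38 were higher and 6 lower, beside 28.1% and 15.0% of all genes, and in ExpB 20 were higher and 5 lower than in 2C, beside 30.7% and 23.6%. BSG, the chaperone that brings monocarboxylate transporters to the cell surface, read 4.88, 8.13 and 5.24 in 16C, 35.3, 31.9 and 21.3 in Morula (log2 difference 2.1, adjusted p = 1.6e-07), 189, 204 and 184 in EarlyB (log2 difference 2.7, adjusted p = 1.3e-08) and 380.5, 272, 374 and 356 in ExpB. The 2 subunits of the mitochondrial pyruvate carrier started at different levels. MPC1 was at 62.7, 62.3 and 40.0 in 16C and MPC2 at 8.49, 10.9 and 10.1, and in Morula they stood at 145, 84.8 and 66.9 and 148, 87.9 and 145, of which the change of MPC2 was called (log2 difference 3.53, adjusted p = 4.1e-10). ATF4, a transcription factor of the amino acid response, rose at Morula from 204, 181 and 94 to 278, 394 and 276 (log2 difference 1.04, adjusted p = 0.00073), a call lost on the TPM scale, with median-ratio scaling and without 16C replicate 3 or Morula replicate 2 (log2 differences 0.66, 0.80, 0.70 and 0.87). NFE2L2, a regulator of the antioxidant response that is known to act on SLC7A11, rose at Morula from 1.39, 0.599 and 1.75 to 7.21, 8.29 and 11.4 (log2 difference 2.16, adjusted p = 9.7e-07) and from EarlyB to ExpB (log2 difference 1.2, adjusted p = 0.0011).

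The 204 rows that match the name pattern but stayed below the threshold were not all silent: 80 of them reached an FPKM of 1 in at least 2 libraries, and 3 were at 0 in every library. Among the carriers named below the threshold, SLC44A4 had the highest single value, 8.90 FPKM in EarlyB replicate 3, with the third highest value at 4.52. The carnitine importer SLC22A5 reached 4.80, in 16C replicate 2, and the neutral amino acid transporter SLC1A4 reached 5.98, in ExpB replicate 2. The folate transporters SLC19A1 and SLC46A1 stayed at or under 0.462 and 0.118 FPKM in every library.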

How the data were processed

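Poly(A) RNA of 26 libraries was measured. The authors deposited a table of FPKM per gene, 1 column per library. The submitters' processing notes name featureCounts 2.0.1, HISAT2 2.1.0, fastp 0.23.4 and SAMtools 1.9 without their roles. Genome build and annotation were not given in the sources used here. No column was left unused.

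All rows that reached an FPKM of 1 in 2 or more libraries (15766 genes, the 117 members included) entered a limma 3.58.1 model (R 4.3.3) of log2(FPKM + 1), with 8 stage means, contrasts and eBayes with a trend (18 residual and 4.6 prior degrees of freedom). The test was two-sided, with Benjamini-Hochberg adjustment within each contrast over all genes tested. A gene was called at an adjusted p under 0.05 and a difference of at least 1. This scale understates changes of genes near 0. The fit was tested on simulated data. Reads per library were recovered from FPKM steps of small RNA genes, and these reads carry no molecular identifiers.

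The members and all gene lists were chosen with earlier results of these data known. Members named were, per contrast, the 4 called with the largest rise and the 4 with the largest fall, the 10 highest, per cargo class the highest and the most variable, members of sets that share a substrate or complex, the 2 that are no transporters and the rows nearest the threshold. Others named were chosen after their values were seen. Some genes that these rules name are not reported here. Of the 117 symbols, 116 are in the RefSeq gene table. Alternatives were a pseudocount of 0.1, no filter, TPM and median-ratio scaling, fits on the 2 stages compared, a replicate block and leaving out each library.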

Additional observations from a re-analysis of the deposited data

Results flagged for a closer look

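In stages with 4 libraries, 213 sets of values (71 named members in 2C, 8C and ExpB) were checked for a single library whose gap to the nearest other exceeded Dixon's 95% critical value. This happened in 11 sets, and chance alone gives about 1 in 20. In 2C, replicate 1 was high for SLC66A3, at 1.5 FPKM against 0.0993 to 0.323 in the others, and replicate 4 was high for SLC39A10, at 78.8 against 70.4 to 70.7. In 8C, replicate 1 was low for SLC20A1, at 60.6 against 74.2 to 76.0, and replicate 2 was low for SLC30A7, at 9.38 against 12.2 to 12.7. 8C replicate 4 was high for SLC25A4, at 25.4 against 12.3 to 13.4, and for SLC9A3R1, at 7.37 against 2.20 to 2.24.

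In ExpB, replicate 1 was high for SLC25A32, at 6.84 against 5.09 to 5.37, and for SLC39A1, at 7.19 against 4.93 to 5.29. Replicate 2 was high for SLC30A6, at 6.44 against 4.54 to 4.83, and for SLC39A14, at 19.3 against 15.7 to 16.2. Replicate 3 was high for SLC35A1, at 8.69 against 7.35 to 7.52.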

How the results depend on the processing

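No called difference of a member or listed partner gene reported here changed sign under any alternative run, but the balance of higher and lower counts turned round for 2C against MII with median-ratio scaling and for ExpB against EarlyB with a pseudocount of 0.1 (16 higher) and without EarlyB replicate 3 (13 and 16). Leaving out 1 library at a time gave 2 to 11 members higher and 0 to 4 lower in 2C than MII, 0 to 0 in both directions for 4C against 2C, 0 to 1 higher and 0 to 1 lower for 8C against 4C, and 4 to 8 higher and 1 to 4 lower for 16C against 8C. It gave 41 to 43 higher and 26 to 32 lower at Morula, 33 to 35 and 11 to 15 at EarlyB, 13 to 19 and 13 to 16 at ExpB against EarlyB, and 58 to 60 and 37 to 38 for ExpB against 2C. Members higher in 2C than MII numbered 14 on the TPM scale and 2 with median-ratio scaling, where 4 were lower. Members lower in 16C than 8C numbered 7 with a pseudocount of 0.1, 5 on the TPM scale and 1 in the fit on those 2 stages alone. With median-ratio scaling 28 members were higher and 9 lower in ExpB than EarlyB, and with a pseudocount of 0.1, 23 were lower. The causes were not tested. The labels do not say whether replicate numbers in the titles pair libraries across stages. Correlations of same-numbered deviations ran from -0.09 to 0.40. In no comparison with 3 or more pairs did all exceed 0.1, but the 2 pairs of 2C and MII did, at 0.40 and 0.14. So few pairs cannot settle whether libraries of different stages shared a culture. With the replicate block the counts were 7 and 2 for 2C against MII, 6 and 2 at 16C, 43 and 32 at Morula, 34 and 14 at EarlyB, 18 and 14 for ExpB against EarlyB and 60 and 37 for ExpB against 2C, and SLC30A7 was no longer called in 2C against MII (adjusted p 0.088). The shallowest library was EarlyB replicate 2.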

Other observations

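Carriers outside the naming pattern also differed between stages. The nucleotide sugar carrier SLC35D1 stood at 287, 231 and 134 FPKM in 16C, 46.5, 34.1 and 59.8 in Morula (log2 difference -2.16, adjusted p = 5.8e-07) and 3.09, 3.64, 5.59 and 2.66 in ExpB, and the related SLC35E3 fell from 45.4, 51.8 and 30.3 to 3.61, 2.99 and 3.6 at Morula (log2 difference -3.27, adjusted p = 2.5e-10). SLC35G1 rose at each step after 16C, with 1.56, 0.20 and 1.09 in 16C, 14.3, 13.9 and 10.6 in Morula, 51.5, 40.0 and 41.5 in EarlyB and 169, 216, 219 and 196 in ExpB. The organic anion transporter SLCO4C1 was at 0 to 0.408 up to 16C and at 32.1, 40.8, 38.4 and 32.1 in ExpB, above EarlyB, at 18, 14.7 and 11.3 (log2 difference 1.25, adjusted p = 3.5e-05). The sideroflexin SFXN4, of the inner mitochondrial membrane, fell at Morula from 52.8, 47.4 and 36.8 to 19.2, 15 and 15.5 (log2 difference -1.4, adjusted p = 4.9e-06).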
